A study of Mus musculus with 9 samples.

Results

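The Wnt pathway genes described here are 45 of 18193 genes measured on 9 mouse arrays. They were taken by name, with no use of their values: every gene whose array annotation symbol is Wnt, Fzd, Sfrp or Dkk followed by a digit, together with Axin2, Nkd1, Lgr5, Lef1, Sp5, Lrp5 and Lrp6. Tcf7, which the same rule names, was not analysed here because no probe set carried its symbol alone. The 45 genes comprised 19 ligands, 10 Frizzled receptors, 1 RNA from the opposite strand at a Frizzled gene (Fzd10os), 2 co-receptors, 4 secreted Frizzled-related proteins, 4 Dickkopf genes, 1 TCF/LEF factor and 4 genes known to respond to the pathway.

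Secreted Wnt proteins bind Frizzled receptors at the cell surface together with the co-receptors Lrp5 or Lrp6. This stops the destruction complex of Axin, Apc and Gsk3 from breaking down beta-catenin, which then enters the nucleus and activates genes together with TCF/LEF factors. Several ligands also act without beta-catenin, through receptors such as Ror2, on cell polarity and movement. In the embryonic cortex the pathway is known for patterning the dorsal forebrain and for setting the balance between proliferation and differentiation of neural progenitors.

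RNA came from 3 kinds of murine neural cells, with 3 arrays in each group. The yNSCs were neural stem cell-like cells derived from cortical neurons by doxycycline-inducible expression of wild-type YAP, the coactivator of TEAD factors that Hippo signalling holds in check, from lentiviral vectors that also supplied the transactivator rtTA. NSCs were native neural stem cells, and both kinds of stem cells were cultured in the same DMEM/F12 medium with N2, EGF, bFGF and heparin. Neurons were primary cortical cultures from late embryos or newborn pups, kept in Neurobasal with B27 and AraC, a compound that kills dividing cells, so the media differed between stem cells and neurons. The passage number and doxycycline state of the arrayed yNSCs were not given in the labels. Per the labels, replicates A, B and C are biological, with no strain or clone named.

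All values are log2 expression values as deposited, 1 per gene from its probe set of highest mean, and 1 unit is a doubling. Each difference takes the group named second from the group named first and is given with its moderated standard error (SE). A gene was called higher or lower when its Benjamini-Hochberg adjusted p from limma over all 18193 genes was under 0.05. With 3 arrays against 3, an exact permutation test cannot give a two-sided p below 0.1, so calls rest on the fit across all genes. Since value tables of this kind hold no detection calls, the 95th percentile of 39 olfactory receptor genes, which neural cultures should not express, served as a mark of low level. Its mean was 4.39 in yNSCs, 4.30 in NSCs and 4.79 in neurons, and a gene whose group mean lay under it is said to be within the olfactory receptor range. The size of a difference is uncertain there. Levels of different genes are not compared, since probes differ in their response.

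Arrays within a group correlated at 0.992 to 0.998. The mean of 7 neuron markers was 5.24 to 5.44 over the yNSC arrays, 4.77 to 4.95 over the NSC arrays and 11.18 to 11.24 over the neuron arrays, and that of 7 neural stem cell markers was 9.75 to 9.80, 10.02 to 10.29 and 8.64 to 8.75 in the same order. Within that list Hes5, a Notch target of neural progenitors, was at 4.22 ± 0.12 in yNSCs, 8.09 ± 0.29 in NSCs and 5.05 ± 0.22 in neurons (SD, n = 3 each), within the olfactory receptor range in yNSCs. Microglial genes were highest in the neuron cultures, with a mean of 8 markers of 4.64 to 4.75 in yNSCs, 3.87 to 3.94 in NSCs and 8.30 to 8.86 in neurons. All 8 were called lower in yNSCs than in neurons. In yNSCs against NSCs 5 were higher, most of all Tyrobp (1.60), and 0 were lower. Within the olfactory receptor range lay 2 of the 8 in yNSCs and 6 in NSCs. The mean of 7 astrocyte markers was high in both yNSCs and neurons, at 9.48 to 9.66 in yNSCs, 7.15 to 7.82 in NSCs and 9.28 to 9.40 in neurons. In yNSCs against NSCs 5 were higher, most of all Gfap (5.42) and Aqp4 (4.83), 0 were lower and 2 were not called. In NSCs against neurons 4 were lower, most of all Aqp4 (-5.65) and Gfap (-3.81), 1 was higher (Aldh1l1, 1.68) and 2 were not called. The NSC arrays were far apart for Aqp4, at 4.97 ± 1.4 (SD, n = 3). Oligodendrocyte precursor genes also moved between the stem cells, with a mean of 6 markers of 6.93 to 7.01 in yNSCs, 7.97 to 8.09 in NSCs and 7.76 to 7.93 in neurons. Of these 6, Pdgfra (-3.12), Cspg4 (-2.20) and Olig2 (-0.73) were lower and 0 higher in yNSCs than in NSCs, and Pdgfra averaged 4.04 ± 0.11 in yNSCs, 7.15 ± 0.25 in NSCs and 9.61 ± 0.17 in neurons (SD, n = 3 each). Of 8 endothelial markers, 5 in yNSCs, 5 in NSCs and 6 in neurons lay within the olfactory receptor range, Pecam1 and Cdh5 among them in each group. In such bulk RNA, fewer cells of a type and less RNA per cell cannot be told apart, and what these other cells contributed to the Wnt genes below was not tested.

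As a group, the 45 genes moved in both directions in all 3 comparisons. In yNSCs against neurons, 14 (31.1%) were higher and 17 (37.8%) lower, beside 34.6% higher and 27.9% lower of all genes. In yNSCs against NSCs, 8 (17.8%) were higher and 13 (28.9%) lower, beside 21.3% and 18.0% of all genes. In NSCs against neurons, 15 (33.3%) were higher and 17 (37.8%) lower, beside 33.3% and 34.1% of all genes. The median difference of the 45 genes was -0.12, 0.00 and -0.14 in these comparisons, against -0.01, 0.07 and -0.07 for all genes. Many of the lower calls came from barely detected genes: 8 of the 17 in yNSCs against neurons and 8 of the 17 in NSCs against neurons were within the olfactory receptor range in both groups compared. When the arrays were quantile normalized again, the split in NSCs against neurons changed to 16 higher and 12 lower, beside 30.8% and 31.7% of all genes. The 3 comparisons share arrays with each other, so their counts are not independent.

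**Figure D1:**
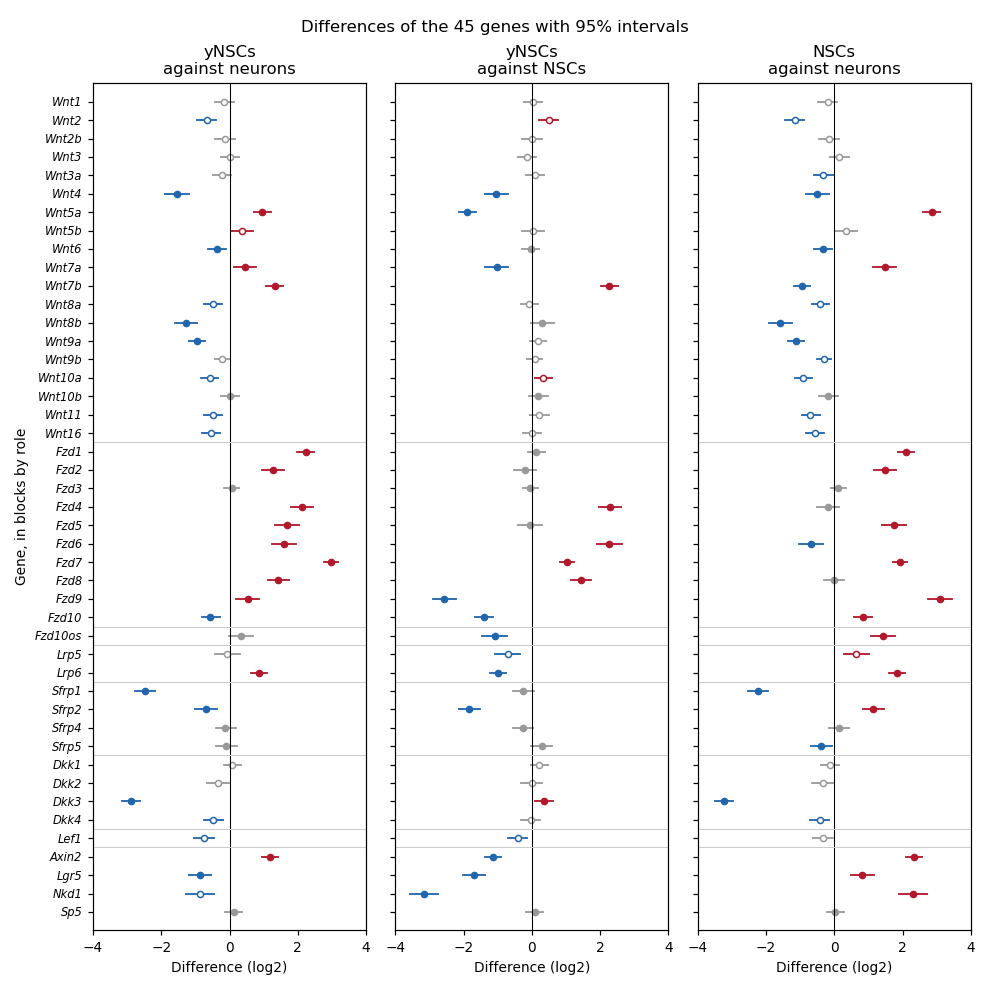
Differences of the 45 genes on the log2 scale (horizontal axis) in the 3 comparisons, with 95% intervals from limma, in blocks of ligands, Frizzled receptors, Fzd10os, co-receptors, Sfrp genes, Dkk genes, Lef1 and targets. Red marks genes called higher in the group named first, blue genes called lower, grey genes not called, and open points genes within the olfactory receptor range in both groups. The Frizzled block lies mostly to the right against neurons, with 8 of 10 genes higher in yNSCs, while 3 of the 4 targets lie to the left in yNSCs against NSCs.

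Among the ligands, yNSCs stood out by Wnt7b. Wnt5a and Wnt7a were instead highest in NSCs, and Wnt4, Wnt8b and Wnt9a were highest in neurons. Of 19 ligand genes, 11 (Wnt1, Wnt2, Wnt2b, Wnt3, Wnt3a, Wnt5b, Wnt8a, Wnt9b, Wnt10a, Wnt11 and Wnt16) were within the olfactory receptor range in all 3 groups. Over all 19, yNSCs against neurons gave 4 higher and 9 lower, yNSCs against NSCs 3 higher and 3 lower, and NSCs against neurons 2 higher and 12 lower, against shares of all genes of 34.6% and 27.9%, 21.3% and 18.0%, and 33.3% and 34.1%. Of the lower calls, 5 of 9 in yNSCs against neurons and 7 of 12 in NSCs against neurons were within the olfactory receptor range in both groups.

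Wnt7b, a ligand of cortical neurons and progenitors that can act through beta-catenin, was measured at 9.60, 9.54 and 9.72 in yNSCs, at 7.48, 7.36 and 7.21 in NSCs and at 8.16, 8.34 and 8.39 in neurons. Every yNSC array lay above every array of the other groups, and NSCs were lowest. The difference was 1.32 (SE 0.111, adjusted p = 4.59e-07), or 2.50-fold, in yNSCs against neurons and 2.27 (SE 0.111, adjusted p = 1.67e-08), or 4.82-fold, in yNSCs against NSCs. Wnt7b fell by 0.95 in NSCs against neurons (adjusted p = 9.16e-06). A further Wnt7b probe set gave the same order, with 8.97, 8.88 and 9.26 in yNSCs, 4.70, 4.99 and 5.06 in NSCs and 6.60, 6.60 and 6.86 in neurons.

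Wnt5a, the best-known ligand of the beta-catenin-independent branch, read 7.27, 7.20 and 6.98 in yNSCs, 8.88, 9.10 and 9.15 in NSCs and 6.24, 6.11 and 6.21 in neurons. The groups did not overlap, and yNSCs lay between NSCs and neurons. Wnt5a was higher by 0.96 in yNSCs than in neurons (SE 0.114, adjusted p = 1.1e-05), fell by 1.89 in yNSCs against NSCs (SE 0.114, adjusted p = 9.76e-08) and was higher by 2.86, or 7.24-fold, in NSCs than in neurons (adjusted p = 5.72e-10).

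Wnt7a, a close relative of Wnt7b, was at 6.59, 6.70 and 6.82 in yNSCs, 7.94, 7.63 and 7.61 in NSCs and 6.07, 6.59 and 6.09 in neurons. NSCs were clear of the other groups, whereas the yNSC and neuron arrays touched at 6.59. The difference was -1.02 in yNSCs against NSCs (SE 0.152, adjusted p = 0.000178), 1.48 in NSCs against neurons (adjusted p = 2.76e-06) and 0.45 in yNSCs against neurons (SE 0.152, adjusted p = 0.0206). That last call was lost without neuron array A (0.36, adjusted p = 0.0789), neuron array C (0.37, adjusted p = 0.078), yNSC array B (0.45, adjusted p = 0.0514) or yNSC array C (0.39, adjusted p = 0.0732). The probe sets of Wnt7a did not read alike: a further one gave 5.88, 5.76 and 6.31 in yNSCs, 5.55, 5.75 and 5.64 in NSCs and 5.95, 6.40 and 5.86 in neurons, and was called lower in NSCs than in neurons (-0.42, adjusted p = 0.0448 over all probe sets). With the mean of all its probe sets, Wnt7a fell by 0.26 in yNSCs against NSCs and was not called (adjusted p = 0.0924).

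Wnt4 had values of 5.37, 5.04 and 5.48 in yNSCs, 6.06, 6.42 and 6.53 in NSCs and 6.78, 6.68 and 7.04 in neurons. On this probe set it was lowest in yNSCs, without overlap, falling by 1.54 against neurons (SE 0.157, adjusted p = 2.75e-06) and by 1.04 against NSCs (SE 0.157, adjusted p = 0.000201). Between NSCs and neurons Wnt4 differed by -0.50 (adjusted p = 0.0142), a call lost without NSC array A (-0.36, adjusted p = 0.059) or neuron array C (-0.39, adjusted p = 0.0612). A further Wnt4 probe set overlapped between yNSCs (3.87, 4.13 and 4.38) and NSCs (4.11, 4.47 and 4.42) and was not called there (-0.21, adjusted p = 0.311 over all probe sets), but read 5.22, 5.48 and 5.36 in neurons. With both averaged, Wnt4 fell by 0.62 in yNSCs against NSCs (adjusted p = 0.00211).

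Wnt8b, expressed in the cortical hem of the embryonic brain, read 4.36, 4.49 and 4.69 in yNSCs, 4.21, 3.93 and 4.47 in NSCs and 5.57, 5.95 and 5.84 in neurons. Neurons alone were clearly above the olfactory receptor range. Wnt8b fell by 1.27 in yNSCs against neurons (SE 0.153, adjusted p = 1.24e-05) and by 1.58 in NSCs against neurons (adjusted p = 1.63e-06). In yNSCs against NSCs its difference was 0.31 (95% interval -0.03 to 0.65, not called), with a call without NSC array C (0.44, adjusted p = 0.0457).

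Wnt9a was at 3.84, 3.90 and 3.88 in yNSCs, 3.65, 3.79 and 3.66 in NSCs and 4.74, 4.73 and 5.0 in neurons. Both kinds of stem cells were within the olfactory receptor range and neurons only just above it, and Wnt9a fell by 0.95 in yNSCs against neurons (adjusted p = 5.84e-06) and fell by 1.12 in NSCs against neurons (adjusted p = 1.19e-06). Wnt2, within that range in every group, averaged 3.84 ± 0.012 in yNSCs, 3.35 ± 0.22 in NSCs and 4.50 ± 0.15 in neurons (SD, n = 3 each). It fell by 0.67 in yNSCs against neurons and by 1.15 in NSCs against neurons (adjusted p = 0.000524 and 4.73e-06), sizes that the low level makes uncertain.

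The canonical ligands Wnt1 and Wnt3a were not detectable above the olfactory receptor range in any group. Wnt1 averaged 3.51 ± 0.21 in yNSCs, 3.48 ± 0.11 in NSCs and 3.67 ± 0.13 in neurons, and Wnt3a 3.84 ± 0.11, 3.74 ± 0.083 and 4.06 ± 0.21 in the same order (SD, n = 3 each). Wnt10b, just above the mark in yNSCs and NSCs, read 4.63, 4.41 and 4.58 in yNSCs, 4.23, 4.41 and 4.41 in NSCs and 4.58, 4.28 and 4.72 in neurons and was not called in any comparison. Without neuron array B its difference of -0.30 in NSCs against neurons was called (adjusted p = 0.0449). Wnt6 averaged 4.90 ± 0.10 in yNSCs, 4.94 ± 0.084 in NSCs and 5.26 ± 0.20 in neurons, a fall of 0.36 in yNSCs against neurons (adjusted p = 0.0198) that was not called without neuron array B (-0.25, adjusted p = 0.0803) or yNSC array B (-0.31, adjusted p = 0.0846).

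**Figure D2:**
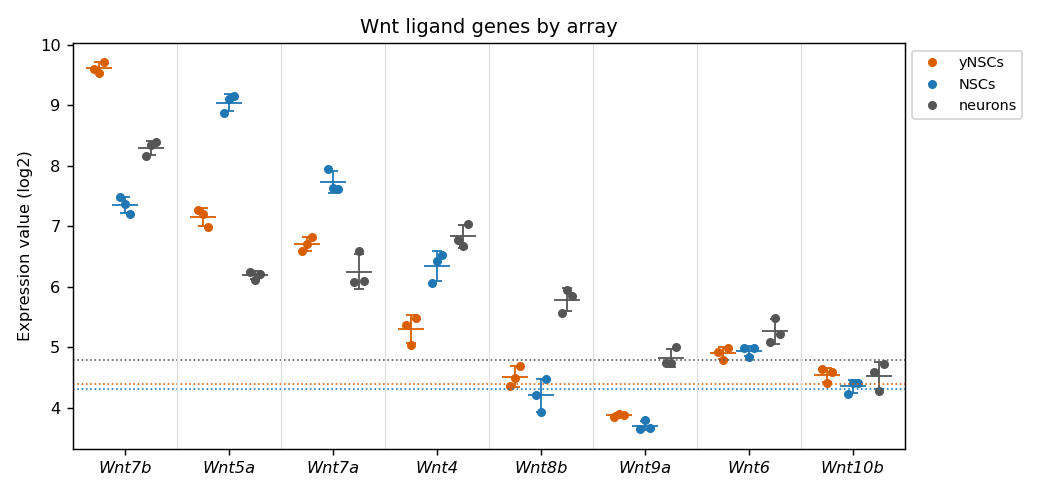
Log2 expression values (vertical axis) of the 8 Wnt ligand genes above the olfactory receptor range in at least 1 group. Each point is 1 array, long bars are group means and short caps SD (n = 3 per group), and dotted lines are the olfactory receptor marks of the groups. Wnt7b is highest in yNSCs at 9.54 to 9.72, Wnt5a in NSCs at 8.88 to 9.15, and Wnt8b in neurons at 5.57 to 5.95.

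All 10 Frizzled genes, which encode the membrane receptors of Wnt proteins, were above the olfactory receptor range in at least 1 group. In yNSCs against neurons 8 were higher, Fzd10 was lower and Fzd3 was not called, with a median difference of 1.51. In yNSCs against NSCs 4 were higher (Fzd4, Fzd6, Fzd7 and Fzd8), Fzd9 and Fzd10 were lower and 4 were not called. In NSCs against neurons 6 were higher, Fzd6 was lower and 3 were not called. Beside these 10 genes stand shares of all genes called higher and lower of 34.6% and 27.9% in yNSCs against neurons, 21.3% and 18.0% in yNSCs against NSCs, and 33.3% and 34.1% in NSCs against neurons. Values below are of each gene's strongest probe set unless a further one is named.

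On their strongest probe sets, Fzd4, Fzd6 and Fzd8 were high in yNSCs relative to both other groups. Fzd4, a receptor for Wnt proteins and for the unrelated ligand Norrin, read 6.91, 6.80 and 6.98 in yNSCs, 4.85, 4.58 and 4.36 in NSCs and 5.02, 4.78 and 4.55 in neurons. NSC and neuron arrays overlapped near the olfactory receptor mark, and all yNSC arrays lay above them. The difference was 2.11 (SE 0.148, adjusted p = 8.48e-08), or 4.33-fold, in yNSCs against neurons and 2.30 (SE 0.148, adjusted p = 1.65e-07), or 4.92-fold, in yNSCs against NSCs. It was -0.19 in NSCs against neurons, with a 95% interval from -0.51 to 0.14. A further Fzd4 probe set read 6.0, 6.07 and 5.87 in yNSCs, 4.99, 5.05 and 5.02 in NSCs and 4.27, 4.40 and 4.47 in neurons. It was higher in yNSCs too, by 1.60 against neurons and 0.96 against NSCs, but was also called higher in NSCs than in neurons (0.64, adjusted p = 0.000162 over all probe sets). With all Fzd4 probe sets averaged, the difference was 1.34 in yNSCs against neurons and 1.18 in yNSCs against NSCs, both called.

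Fzd6 was measured at 6.89, 6.60 and 6.16 in yNSCs, 4.13, 4.23 and 4.48 in NSCs and 4.95, 4.98 and 4.95 in neurons. On this probe set NSCs were within the olfactory receptor range and below neurons. Fzd6, a receptor known from mouse mutants for its part in the polarity of hair and skin, was higher by 1.59 in yNSCs than in neurons (SE 0.164, adjusted p = 3.05e-06) and by 2.27, or 4.82-fold, in yNSCs than in NSCs (SE 0.164, adjusted p = 4.35e-07), and fell by 0.68 in NSCs against neurons (adjusted p = 0.0029). Neither of its 2 further probe sets was called in yNSCs against neurons (-0.12, adjusted p = 0.449, and 0.47, adjusted p = 0.0773), and 1 of them was called in yNSCs against NSCs (1.17, adjusted p = 0.000833). The other, with 4.99, 4.99 and 5.25 in yNSCs, 4.78, 4.96 and 4.57 in NSCs and 5.13, 5.11 and 5.36 in neurons, was above the mark in every group. With the 3 averaged, Fzd6 was higher by 0.64 in yNSCs than in neurons (adjusted p = 0.000294) and by 1.25 in yNSCs than in NSCs (adjusted p = 3.35e-06).

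Fzd8 gave 6.90, 6.76 and 6.76 in yNSCs, 5.55, 5.45 and 5.11 in NSCs and 5.29, 5.25 and 5.59 in neurons. On this probe set only yNSCs stood apart, by 1.43 against neurons (SE 0.136, adjusted p = 1.44e-06) and by 1.44 against NSCs (SE 0.136, adjusted p = 4.36e-06). NSCs and neurons differed by -0.01 with a 95% interval from -0.30 to 0.29. A further, weaker Fzd8 probe set was higher in yNSCs as well (0.65 against neurons and 1.2 against NSCs) and was called lower in NSCs than in neurons (-0.56, adjusted p = 0.00936 over all probe sets).

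Fzd7, a receptor of many stem and progenitor cells, followed the order yNSCs, NSCs, neurons from high to low. Its values were 8.91, 8.80 and 8.81 in yNSCs, 7.84, 7.85 and 7.72 in NSCs and 5.90, 5.82 and 5.91 in neurons. No groups overlapped, and the difference of 2.96 (SE 0.0941, adjusted p = 8.79e-11), or 7.80-fold, in yNSCs against neurons was the highest among the 45 genes in that comparison. Fzd7 was higher by 1.04 in yNSCs than in NSCs (adjusted p = 3.18e-06) and by 1.93 in NSCs than in neurons (adjusted p = 3.16e-09). A weaker Fzd7 probe set was also higher in yNSCs, by 0.55 against neurons and 0.89 against NSCs, but lower in NSCs than in neurons (-0.34, adjusted p = 0.0189 over all probe sets).

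Fzd1, Fzd2 and Fzd5 were high in both kinds of stem cells. Fzd1 read 9.46, 9.23 and 9.18 in yNSCs, 9.08, 9.25 and 9.15 in NSCs and 6.97, 7.01 and 7.18 in neurons. Fzd2 read 8.07, 7.96 and 8.06 in yNSCs, 8.23, 8.32 and 8.16 in NSCs and 7.03, 6.39 and 6.84 in neurons. In both genes the neuron arrays were the lowest, by 2.24 (adjusted p = 4.12e-09) for Fzd1 and 1.28 (adjusted p = 7.51e-06) for Fzd2 in yNSCs against neurons and by 2.11 and 1.48 in NSCs against neurons.

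Fzd5 was at 6.70, 6.74 and 6.67 in yNSCs, 6.83, 6.67 and 6.81 in NSCs and 4.58, 5.23 and 5.28 in neurons, higher by 1.67 in yNSCs (SE 0.162, adjusted p = 1.69e-06) and by 1.74 in NSCs (adjusted p = 1.1e-06) than in neurons. None of these genes was called in yNSCs against NSCs, where the 95% intervals were -0.11 to 0.37 for Fzd1, -0.52 to 0.11 for Fzd2 and -0.42 to 0.29 for Fzd5. When the probe sets of each gene were averaged, however, Fzd1 was called higher (0.75, adjusted p = 0.000989) and Fzd2 lower (-0.51, adjusted p = 0.00122) in yNSCs than in NSCs.

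Fzd9 and Fzd10 marked the NSCs. Fzd9, which lies in the chromosome region deleted in Williams syndrome in human, was at 7.22, 7.34 and 7.17 in yNSCs, 9.75, 9.79 and 9.90 in NSCs and 7.12, 6.40 and 6.63 in neurons. NSC arrays exceeded all others, and Fzd9 fell by 2.57 in yNSCs against NSCs (SE 0.157, adjusted p = 1.07e-07), which is 5.94-fold, and was higher by 3.10, or 8.55-fold, in NSCs than in neurons (SE 0.157, adjusted p = 4.41e-09). Between yNSCs and neurons the difference was 0.53 (adjusted p = 0.0112), and after quantile normalization again it was 0.23 and not called (adjusted p = 0.197).

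Fzd10 read 5.35, 5.53 and 5.46 in yNSCs, 7.05, 6.64 and 6.84 in NSCs and 5.99, 6.11 and 5.91 in neurons. It was the Frizzled gene that was lower in yNSCs than in both other groups, with differences of -0.56 against neurons (SE 0.12, adjusted p = 0.00145) and -1.40 against NSCs (SE 0.12, adjusted p = 2.05e-06). Fzd10os, the RNA annotated on the strand opposite Fzd10, was at 4.65, 4.63 and 4.46 in yNSCs, 5.52, 6.0 and 5.49 in NSCs and 3.95, 4.48 and 4.29 in neurons. It too was highest in NSCs, with differences of -1.09 in yNSCs against NSCs (adjusted p = 0.000189) and 1.43 in NSCs against neurons (adjusted p = 7.07e-06). In yNSCs against neurons Fzd10os differed by 0.34 (95% interval -0.02 to 0.70, not called), with a call without neuron array B (0.46, adjusted p = 0.0379).

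Fzd3, needed for the growth of axon tracts in the mouse forebrain, was not called in any comparison by its strongest probe set, at 10.46, 10.37 and 10.31 in yNSCs, 10.38, 10.37 and 10.53 in NSCs and 10.35, 10.37 and 10.21 in neurons. Its other 5 probe sets read differently. Of these, 4 were called higher in yNSCs than in neurons, such as one with 7.78, 7.83 and 7.91 in yNSCs, 6.55, 6.78 and 6.78 in NSCs and 5.43, 5.18 and 5.76 in neurons (2.38, adjusted p = 2.81e-08 over all probe sets). With the mean of the 6 probe sets, Fzd3 differed by 1.23 in yNSCs against neurons (adjusted p = 3.3e-07), 0.65 in yNSCs against NSCs (adjusted p = 0.00018) and 0.57 in NSCs against neurons (adjusted p = 0.000225). The level of Fzd3 therefore depends on which probe set is read. Over all 45 genes, 28 had more than 1 probe set, and probe sets of a gene were called in opposite directions for 0 of them in yNSCs against neurons, 0 in yNSCs against NSCs and 3 (Fzd3, Fzd7 and Wnt7a) in NSCs against neurons.

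**Figure D3:**
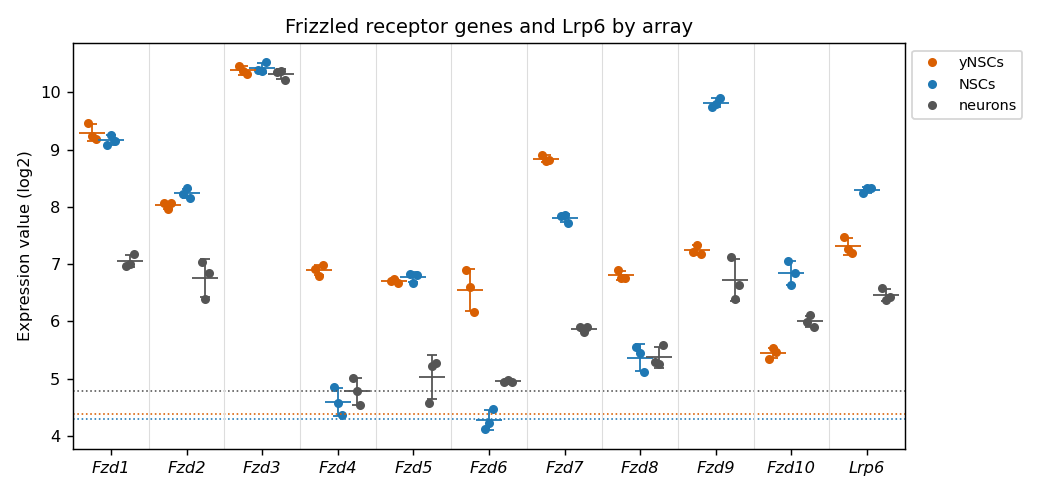
Log2 expression values (vertical axis) of the 10 Frizzled genes and Lrp6. Each point is 1 array, long bars are group means and short caps SD (n = 3 per group), and dotted lines are the olfactory receptor marks of the groups. Each gene is shown by its strongest probe set, on which Fzd4, Fzd6 and Fzd8 are highest in yNSCs, Fzd9 and Fzd10 are highest in NSCs and Fzd3 lies between 10.21 and 10.53 on all 9 arrays.

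The promoters of the receptor genes that separated the stem cells most in each direction are shown for reference. Both are the 250 bases before the transcription start in the RefSeq promoter table of build GRCm38.p6, 5′ to 3′ on the strand of the gene: Fzd4 at chr7:89404116-89404365 (plus strand) and Fzd9 at chr5:135251048-135251297 (minus strand).
Fzd4: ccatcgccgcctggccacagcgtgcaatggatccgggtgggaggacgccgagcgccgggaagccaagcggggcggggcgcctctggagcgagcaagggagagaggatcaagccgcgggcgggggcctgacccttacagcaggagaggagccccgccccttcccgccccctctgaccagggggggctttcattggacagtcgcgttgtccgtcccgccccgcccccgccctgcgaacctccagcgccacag
Fzd9: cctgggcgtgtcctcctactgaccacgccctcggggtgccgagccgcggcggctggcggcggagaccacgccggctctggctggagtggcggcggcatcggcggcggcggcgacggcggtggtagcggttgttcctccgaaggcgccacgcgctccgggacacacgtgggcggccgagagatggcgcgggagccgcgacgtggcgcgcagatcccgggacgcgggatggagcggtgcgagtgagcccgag
Neither stretch held the TCF/LEF letters CTTTGAT or CTTTGAA or the TEAD letters GGAATG on either strand, the last being the motif of the DNA-binding partners of YAP. In all 32851 promoter stretches of this length in the table, CTTTGAT was found in 3.2%, CTTTGAA in 4.5% and GGAATG in 12.6%. Of the 45 genes, 29 were searched, and 0 of these 29 held GGAATG. The other genes, Fzd8 and Wnt8a among them, were not searched, so nothing is said of their promoters. These are matches of letters in a short window, and no match says only that the letters are not there.

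Lrp6, the co-receptor that is phosphorylated when Wnt binds and that then recruits Axin, was at 7.48, 7.26 and 7.20 in yNSCs, 8.24, 8.32 and 8.33 in NSCs and 6.58, 6.38 and 6.42 in neurons. As with Wnt5a, yNSCs lay between the other groups without overlap. Lrp6 was higher by 0.85 in yNSCs than in neurons (SE 0.108, adjusted p = 1.89e-05), fell by 0.98 in yNSCs against NSCs (adjusted p = 1.55e-05) and was higher by 1.84 in NSCs than in neurons (adjusted p = 1.63e-08). A further Lrp6 probe set gave 0.53, -0.99 and 1.51 in the same comparisons, all called. Lrp5, its relative, was within the olfactory receptor range in all groups, at 3.53 ± 0.23 in yNSCs, 4.24 ± 0.33 in NSCs and 3.59 ± 0.13 in neurons (SD, n = 3 each), and was called lower in yNSCs than in NSCs (-0.71, adjusted p = 0.00491).

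Of the secreted antagonists, Sfrp1 and Dkk3 were highest in neurons and Sfrp2 in NSCs. The 4 Sfrp genes encode proteins that bind Wnt outside the cell through a Frizzled-like domain. Sfrp1 read 5.47, 5.49 and 5.17 in yNSCs, 5.78, 5.56 and 5.54 in NSCs and 7.67, 8.10 and 7.80 in neurons. Neurons were far above both kinds of stem cells, and Sfrp1 fell by 2.48, or 5.58-fold, in yNSCs against neurons (SE 0.137, adjusted p = 1.05e-08) and by 2.23 in NSCs against neurons (adjusted p = 2.55e-08). Its difference in yNSCs against NSCs was -0.25 (95% interval -0.55 to 0.05, not called). Of its 5 probe sets, 2 were called higher in yNSCs than in NSCs (0.58, adjusted p = 0.00564, and 0.44, adjusted p = 0.0395, over all probe sets). With all 5 averaged the difference was 0.12 in yNSCs against NSCs (not called) and -1.44 in yNSCs against neurons (adjusted p = 5.5e-08).

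Sfrp2 was at 5.11, 5.19 and 4.90 in yNSCs, 7.09, 6.77 and 6.83 in NSCs and 5.79, 5.98 and 5.49 in neurons. It was highest in NSCs and lowest in yNSCs, with differences of -0.69 in yNSCs against neurons (SE 0.143, adjusted p = 0.00111), -1.83 in yNSCs against NSCs (SE 0.143, adjusted p = 9.02e-07) and 1.14 in NSCs against neurons (adjusted p = 1.64e-05). Sfrp4 was not called in any comparison, at 5.45, 5.22 and 5.65 in yNSCs, 5.75, 5.55 and 5.78 in NSCs and 5.55, 5.73 and 5.39 in neurons. Sfrp5 averaged 5.07 ± 0.087 in yNSCs, 4.79 ± 0.24 in NSCs and 5.17 ± 0.20 in neurons (SD, n = 3 each). Its call in NSCs against neurons (-0.38, adjusted p = 0.0297) was lost without NSC array B (-0.35, adjusted p = 0.0867), NSC array C (-0.28, adjusted p = 0.121), neuron array A (-0.31, adjusted p = 0.0996) or neuron array B (-0.34, adjusted p = 0.0848), and without NSC array A it was called higher in yNSCs than in NSCs (0.42, adjusted p = 0.0253).

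Dkk3 was the gene with the lowest difference against neurons. The Dickkopf proteins Dkk1, Dkk2 and Dkk4 bind Lrp5 and Lrp6, whereas Dkk3 is a divergent relative. Dkk3 read 4.60, 4.71 and 4.68 in yNSCs, 4.24, 4.23 and 4.47 in NSCs and 7.76, 7.44 and 7.44 in neurons. It was high in neurons alone and fell by 2.88, or 7.38-fold, in yNSCs against neurons (SE 0.118, adjusted p = 7.71e-10) and by 3.23, or 9.40-fold, in NSCs against neurons (SE 0.118, adjusted p = 2.61e-10). A call of 0.35 in yNSCs against NSCs (adjusted p = 0.0337) was not called without any 1 of NSC arrays A or B or yNSC arrays A, B or C, with differences from 0.31 to 0.38 and adjusted p from 0.0582 to 0.111. Dkk1, Dkk2 and Dkk4 were within the olfactory receptor range in all groups, so the inhibitors of Lrp6 in this family were not detectable above that range.

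Of the 4 target genes, which in many tissues rise when beta-catenin is active, Axin2, Nkd1 and Lgr5 were lower in yNSCs than in NSCs, and all 3 were higher in NSCs than in neurons. The median difference of the 4 was -1.42 in yNSCs against NSCs and 1.56 in NSCs against neurons. Of all genes, 18.0% were lower in yNSCs than in NSCs and 33.3% higher in NSCs than in neurons. A list of 19 other genes known to respond to Wnt was balanced in yNSCs against NSCs, with 4 higher, 5 lower and 10 not called and a median of 0.08.

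Axin2, a scaffold of the destruction complex and the most general of these targets, was at 6.61, 6.55 and 6.27 in yNSCs, 7.63, 7.61 and 7.61 in NSCs and 5.35, 5.27 and 5.23 in neurons. The groups did not overlap and yNSCs lay in between. Axin2 was higher by 1.19, or 2.29-fold, in yNSCs than in neurons (SE 0.109, adjusted p = 9.77e-07), fell by 1.14, or 2.20-fold, in yNSCs against NSCs (SE 0.109, adjusted p = 4.67e-06) and was higher by 2.33, or 5.04-fold, in NSCs than in neurons (SE 0.109, adjusted p = 2.03e-09).

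Nkd1, an inhibitor that binds Dishevelled, read 3.69, 3.14 and 3.76 in yNSCs, 6.47, 7.03 and 6.61 in NSCs and 4.18, 4.58 and 4.41 in neurons. On this probe set only NSCs were above the olfactory receptor range. The fall of 3.17, or 9.02-fold, in yNSCs against NSCs (SE 0.188, adjusted p = 8.33e-08) was the lowest difference among the 45 genes in that comparison, and Nkd1 was higher by 2.31 in NSCs than in neurons (adjusted p = 3.19e-07). Of its 3 further probe sets, 2 were also called lower in yNSCs than in NSCs (-0.51 and -1.41) and the other was not called (-0.12, adjusted p = 0.713). Of these, one lay above the mark on every yNSC array (4.75, 4.48 and 4.44) and another on neuron arrays B and C (5.31 and 5.05) but not A (4.24). With all 4 averaged, Nkd1 fell by 1.30 in yNSCs against NSCs. The call of -0.86 in yNSCs against neurons was made within the olfactory receptor range.

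Lgr5, a receptor for R-spondins and a mark of many epithelial stem cells, gave 4.13, 3.98 and 4.04 in yNSCs, 5.40, 6.07 and 5.74 in NSCs and 4.81, 4.99 and 4.95 in neurons. It was highest in NSCs, and yNSCs were within the olfactory receptor range. Lgr5 fell by 0.87 in yNSCs against neurons (SE 0.149, adjusted p = 0.000253), fell by 1.69 in yNSCs against NSCs (SE 0.149, adjusted p = 2.5e-06) and was higher by 0.82 in NSCs than in neurons (adjusted p = 0.000371). So in yNSCs Axin2 was above its level in neurons while Lgr5 was below it. Averaging the probe sets of a gene, of which the weaker was within the olfactory receptor range, made the differences of Axin2 smaller (0.61, -0.69 and 1.30 in yNSCs against neurons, yNSCs against NSCs and NSCs against neurons) and likewise those of Lgr5 (-0.42, -0.83 and 0.42), and all of them were still called.

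Sp5, a transcription factor induced by Wnt in embryonic cells, was near the olfactory receptor mark in all groups, at 4.52 on each yNSC array, 4.54, 4.22 and 4.55 in NSCs and 4.50, 4.29 and 4.42 in neurons, and was not called in any comparison. Lef1, a DNA-binding partner of beta-catenin that is also a target, was within the olfactory receptor range in every group, at 3.81, 3.79 and 3.60 in yNSCs, 4.35, 4.10 and 4.02 in NSCs and 4.52, 4.24 and 4.66 in neurons. It was called lower in yNSCs than in neurons (-0.74, adjusted p = 0.000368). Lower values in yNSCs than in NSCs (-0.42, adjusted p = 0.0241) were not called without NSC array A (-0.33, adjusted p = 0.0835) or yNSC array C (-0.36, adjusted p = 0.0981).

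**Figure D4:**
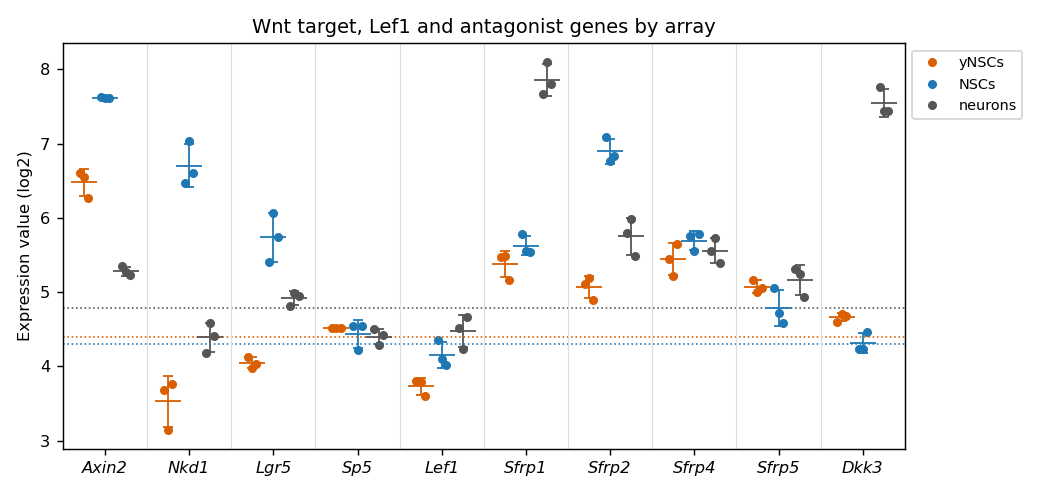
Log2 expression values (vertical axis) of the 4 target genes, Lef1, the 4 Sfrp genes and Dkk3. Each point is 1 array, long bars are group means and short caps SD (n = 3 per group), and dotted lines are the olfactory receptor marks of the groups. Axin2, Nkd1 and Lgr5 are highest in NSCs, while Sfrp1 and Dkk3 are highest in neurons at 7.67 to 8.10 and 7.44 to 7.76.

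For the targets, the promoter stretches of Axin2 and Nkd1, which differed between the stem cells, are shown beside that of Sp5, which did not pass the test. Each is again the 250 bases before the listed start in GRCm38.p6, 5′ to 3′: Axin2 at chr11:108920099-108920348, Nkd1 at chr8:88527383-88527632 and Sp5 at chr2:70474673-70474922, all on the plus strand. The annotated genes of Axin2 and Nkd1 begin farther upstream, at 108917828 and 88521342, so their listed starts lie inside the genes. The bases before those outer starts were not searched. Capitals mark a match to the TCF/LEF letters CTTTGAT on either strand.
Axin2: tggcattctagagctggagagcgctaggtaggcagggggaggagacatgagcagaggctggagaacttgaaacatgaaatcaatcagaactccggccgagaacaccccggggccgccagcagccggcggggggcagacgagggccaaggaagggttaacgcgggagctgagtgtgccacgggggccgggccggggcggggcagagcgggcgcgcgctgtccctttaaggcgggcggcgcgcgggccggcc
Nkd1: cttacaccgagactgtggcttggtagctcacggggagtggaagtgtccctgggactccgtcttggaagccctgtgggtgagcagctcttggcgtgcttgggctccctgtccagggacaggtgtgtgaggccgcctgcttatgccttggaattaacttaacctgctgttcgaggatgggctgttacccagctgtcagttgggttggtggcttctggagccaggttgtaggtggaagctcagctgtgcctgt
Sp5: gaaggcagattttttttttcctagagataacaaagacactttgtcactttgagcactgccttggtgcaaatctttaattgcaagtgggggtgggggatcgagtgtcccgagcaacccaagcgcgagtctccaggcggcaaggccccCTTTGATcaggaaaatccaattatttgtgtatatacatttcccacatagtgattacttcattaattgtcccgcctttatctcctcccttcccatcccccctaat
The match in Sp5 begins 104 bases before the start. Apart from Sp5, the 29 genes searched held CTTTGAT in Wnt11 (51 bases before its first listed start) and in Wnt5b (71 bases before the third start listed), and CTTTGAA in Dkk1 (117 bases before its start). The group means of Sp5, Wnt11, Wnt5b and Dkk1 lay below or near the olfactory receptor mark in each group.

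Of the rest of the pathway, 111 further genes had been listed by role and 107 were measured. In yNSCs against neurons 35 were higher and 37 lower, in yNSCs against NSCs 14 were higher and 47 lower, and in NSCs against neurons 46 were higher and 31 lower. In the same order, 34.6% and 27.9%, 21.3% and 18.0%, and 33.3% and 34.1% of all genes were called higher and lower. The median difference was -0.06, -0.20 and 0.04 in these comparisons, beside the -0.01, 0.07 and -0.07 of all genes. The lower calls in yNSCs against NSCs were spread over several roles: 8 of 11 other secreted or membrane antagonists, 12 of 24 genes of beta-catenin and its destruction complex, 9 of 15 nuclear partners and 8 of 17 polarity and non-canonical effectors, against 1, 0, 1 and 2 higher in these lists, where 18.0% of all genes were lower and 21.3% higher. The other genes known to respond to Wnt were balanced (4 higher and 5 lower of 19), and of 19 other receptors and regulators of receptor turnover 3 were higher and 7 lower. Genes of Wnt secretion went the other way, with 4 of 7 higher in yNSCs than in NSCs and 0 lower, Notum, Tmed5, Vps35 and Vps26a, of which Notum encodes an enzyme that inactivates Wnt proteins.

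Among the antagonists, Sostdc1, a secreted protein that binds Lrp6 and BMP ligands, averaged 4.10 ± 0.15 in yNSCs, 6.58 ± 0.026 in NSCs and 4.96 ± 0.046 in neurons (SD, n = 3 each), falling by 2.48 in yNSCs against NSCs (SE 0.102, adjusted p = 4.47e-09). Draxin, an axon guidance protein that also binds Lrp6, fell by 2.43 in yNSCs against NSCs (SE 0.359, adjusted p = 0.000175). Its NSC arrays were far apart, with 4.62, 4.36 and 4.20 in yNSCs and 5.71, 7.61 and 7.14 in NSCs. Shisa2, which holds Frizzled proteins back in the endoplasmic reticulum, fell by 2.03 (adjusted p = 5e-08). It read 2.59, 2.36 and 2.44 in yNSCs and 4.66, 4.41 and 4.41 in NSCs. Sostdc1 and Shisa2 were within the olfactory receptor range in yNSCs, so the sizes of their falls are uncertain. Dact1, which binds Dishevelled, fell by 2.75 (adjusted p = 3e-08), at 5.96 ± 0.31 in yNSCs, 8.71 ± 0.13 in NSCs and 8.28 ± 0.065 in neurons. Tle4, a corepressor that sits on TCF factors, fell by 2.22 (adjusted p = 2.96e-07). Tpbg, a membrane protein that inhibits Wnt signalling in zebrafish, was the antagonist gene that was higher in yNSCs than in NSCs (0.94, adjusted p = 3.79e-05).

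Ndp had the highest difference among the other genes that act at the receptors. It encodes Norrin, a ligand of Fzd4 that is not a Wnt protein, and read 9.98, 9.99 and 9.88 in yNSCs, 7.47, 7.37 and 7.46 in NSCs and 5.08, 5.24 and 5.14 in neurons. The groups were well apart, with differences of 4.80 (SE 0.0953, adjusted p = 2.74e-12) in yNSCs against neurons and 2.52 (SE 0.0953, adjusted p = 2.51e-09) in yNSCs against NSCs. Ndp and Fzd4 were thus both higher in yNSCs than in either other group, by 2.11 and 2.30 for Fzd4. Tspan12, a membrane protein that joins Norrin and Fzd4, averaged 9.19 ± 0.17 in yNSCs, 9.94 ± 0.20 in NSCs and 6.42 ± 0.32 in neurons (SD, n = 3 each), and was higher in yNSCs than in neurons (2.77, adjusted p = 2.01e-08) but lower than in NSCs (-0.75, adjusted p = 0.00309).

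Of the other genes known to respond to Wnt in some tissue, those with the highest differences are also known to respond to other pathways. Cd44, a hyaluronan receptor, was higher by 6.09 in yNSCs than in neurons (adjusted p = 1.06e-11) and by 2.63 in yNSCs than in NSCs (adjusted p = 5.75e-08). Fosl1, an AP-1 factor, averaged 8.80 ± 0.32 in yNSCs, 4.11 ± 0.075 in NSCs and 4.27 ± 0.28 in neurons (SD, n = 3 each) and was higher in yNSCs by 4.53 against neurons and by 4.69 against NSCs (adjusted p = 3.63e-10 and 1.8e-09). Ccnd1, which encodes cyclin D1, and Jag1, a Notch ligand, were alike high in both stem cells, by 4.12 and 4.11 in yNSCs against neurons (adjusted p = 1.35e-11 and 2.8e-09) and by 4.23 and 4.30 in NSCs against neurons. Neither was called in yNSCs against NSCs (-0.10 and -0.19). Fosl1 was within the olfactory receptor range in NSCs and neurons, and the mean of Jag1 in neurons (5.04, 4.23 and 5.02) lay just within it. The sizes of their differences against these groups are therefore uncertain.

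The lowest differences against neurons were in genes of planar polarity, the destruction complex and R-spondins. Prickle2, a planar polarity protein, fell by 4.07 in yNSCs against neurons (adjusted p = 1.11e-10), and its relative Prickle1 fell by 2.45 (adjusted p = 3.41e-09). Celsr3, a cadherin needed for axon tracts in the mouse, fell by 3.20, Apc, the scaffold of the destruction complex, by 3.02, and Rspo3, a ligand of the Lgr receptors, by 2.69 in the same comparison. In NSCs against neurons the lowest were Prickle2 (-3.89), Celsr3 (-3.17), Rspo3 (-2.64), Apc2 (-2.23) and Btrc (-2.18), and the highest beside Jag1 and Ccnd1 were Shisa3 (3.90), Tspan12 (3.52) and Cd44 (3.46). Celsr3 and Rspo3 in both kinds of stem cells and Shisa3 in neurons were within the olfactory receptor range, where sizes are uncertain. The means of the microglial and neuronal marker lists were also at their highest in the neuron arrays, as given above.

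Several further genes were picked out after their values were seen, because they are the partners of genes described above. Ror1 and Ror2, receptors of Wnt5a, were highest in NSCs like their ligand. Ror2 read 4.33, 4.18 and 4.12 in yNSCs, 6.45, 5.75 and 6.12 in NSCs and 4.41, 4.03 and 4.62 in neurons, falling by 1.90 in yNSCs against NSCs (adjusted p = 5.1e-06). Ror1 read 3.35, 3.55 and 3.25 in yNSCs, 5.16, 5.47 and 4.84 in NSCs and 3.21, 3.71 and 2.59 in neurons, and fell by 1.77 (adjusted p = 8.85e-05). Both genes were within the olfactory receptor range in yNSCs and neurons, so the sizes of these falls are uncertain. Wls, which carries Wnt proteins to the cell surface, was high in both stem cells, at 9.25 ± 0.020 in yNSCs, 9.46 ± 0.080 in NSCs and 6.60 ± 0.24 in neurons (SD, n = 3 each). Tcf7l2, a TCF factor, averaged 7.08 ± 0.17 in yNSCs, 8.45 ± 0.27 in NSCs and 5.62 ± 0.20 in neurons, with differences of 1.46, -1.36 and 2.83 in the order of the comparisons above, all called. The gene of beta-catenin itself, Ctnnb1, was not called in any comparison, at 12.65 ± 0.020 in yNSCs, 12.61 ± 0.066 in NSCs and 12.74 ± 0.015 in neurons. RNA levels do not give the amount or place of its protein.

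**Figure D5:**
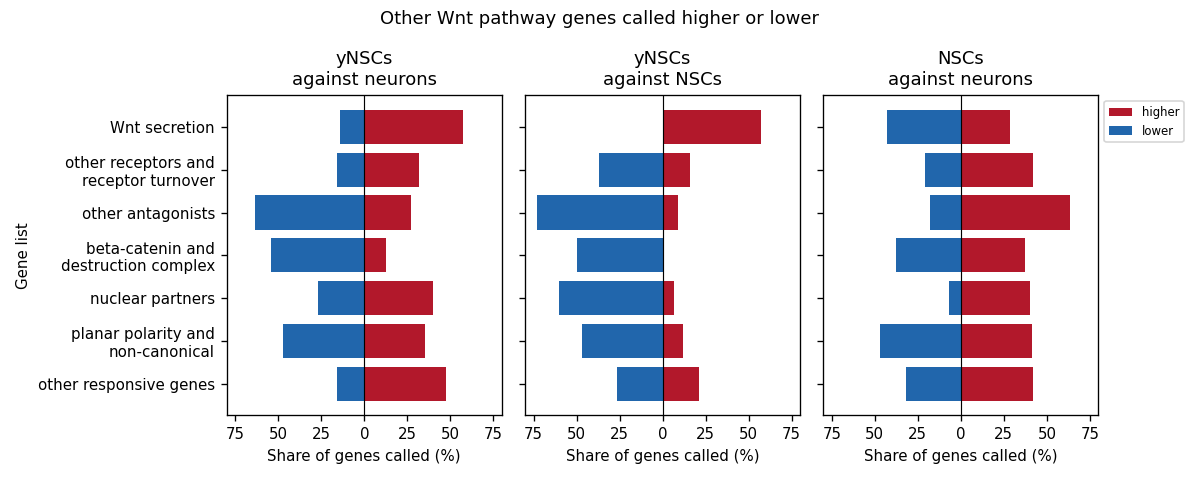
Share of genes called higher (right, red) or lower (left, blue) in the group named first, in percent of the measured genes of each of 7 lists of other Wnt pathway genes, in the 3 comparisons. In yNSCs against NSCs the bars of the other antagonists (8 of 11) and nuclear partners (9 of 15) reach farthest to the left, and only Wnt secretion, with 4 of 7, lies wholly to the right.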

How the data were processed

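The authors summarised Affymetrix Mouse430_2 arrays with RMA, and the deposited table holds 1 log2 value per probe set and array. The genome build and which arrays were normalized together were not given in the sources used here, and no further scaling was applied. Of 45101 probe sets, 34945 carried 1 gene symbol in the platform annotation, and the probe set of highest mean over the 9 arrays stood for each of 18193 genes. The 9 arrays entered 1 linear model of group means in limma 3.58.1 (R 4.3.3) with a moderated variance (6 residual and 5.59 prior degrees of freedom, two-sided tests, Benjamini-Hochberg adjustment over all genes, threshold 0.05). Intervals are 95%. The low mark is the 95th percentile of 39 olfactory receptor genes. The number of arrays limits the precision. The genes, lists and tests were chosen with earlier results of these data known. All 45 genes may be named; per-array values are given for the highest and lowest differences, and of other pathway genes up to 5 highest and 5 lowest per comparison. The fit was checked on simulated data. Calls were recomputed with a block for the replicate letter, on the compared arrays alone, with a filter on low means, other scalings, the mean of all probe sets, a trended robust prior, a 2-fold minimum, a minimum level and leaving out each array. Promoters are from RefSeq (GRCm38.p6).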

Additional observations from a re-analysis of the deposited data

How the results depend on the processing

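Most calls kept their side of the threshold and their direction. With a 2-fold minimum, 9 of the 45 genes were higher and 4 lower in yNSCs against neurons (14 and 17 without it). In yNSCs against NSCs 5 were higher and 10 lower (8 and 13 without it), and in NSCs against neurons 12 and 5 (15 and 17 without it). Under the same minimum 18.3% and 11%, 6.05% and 5.96%, and 18.6% and 12.6% of all genes were called higher and lower. A filter on low means, which dropped 40% of all genes, also dropped many of the 45, Lgr5 and Nkd1 among them. Of those kept, 5 were lower in yNSCs against neurons, 8 in yNSCs against NSCs (13 with all genes) and 5 in NSCs against neurons. These counts are therefore not out of 45, and they fell because lower genes were dropped, not because calls were lost. Of all genes kept by the filter, 26.6%, 28.1% and 28.3% were lower in the same order. Another alternative, chosen after seeing the data, tested all genes but required a group mean above the olfactory receptor mark for a call. Then 9 of the 45 were lower in yNSCs against neurons and 9 in NSCs against neurons, beside 20.5% and 22.6% of all genes. The direction of Fzd3 in yNSCs against NSCs turned with the mean of all its probe sets (0.65, against -0.05). Averaging probe sets also moved some differences by over 1.5 times without changing their calls. Examples are Fzd5 (1.03 in yNSCs and 0.99 in NSCs against neurons), Fzd7 (1.76 and 0.79), Wnt8b (-0.49 and -0.63) and Wnt9a (-0.60 and -0.73) in these comparisons, and Fzd10 in yNSCs against NSCs (-0.61) and NSCs against neurons (0.25). Nkd1 likewise moved to -0.38 in yNSCs against neurons and 0.93 in NSCs against neurons, and Wnt7a to 0.39 in NSCs against neurons. Leaving out single arrays gave 12 to 14 higher and 16 to 20 lower genes in yNSCs against neurons, 6 to 8 and 12 to 13 in yNSCs against NSCs, and 15 to 16 and 14 to 17 in NSCs against neurons. Of all genes, the shares were 32.3% to 35.7% and 23.9% to 28.8%, 17.9% to 22% and 15.3% to 18.3%, and 31.9% to 33.7% and 31.2% to 33.4%. Over single genes and arrays left out, 38 calls were lost, 14 gained and 1163 kept, and none of these lost calls had a difference over 0.50 in size. Beside those named above, the calls of Wnt5b in yNSCs against neurons, of Wnt10a in yNSCs against NSCs and of Wnt3a and Wnt6 in NSCs against neurons (differences of 0.37, 0.33, -0.32 and -0.32) were each lost without some single arrays.

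Same-lettered arrays of different groups showed no visible shared deviation (correlations of -0.105 to 0.100), and arrays of unlike letters spanned -0.184 to 0.136. Deviations from a mean of so few arrays are tied to each other, so this check cannot exclude that the letters pair the arrays. With the letter as a replicate block, 14 genes were higher and 17 lower in yNSCs against neurons, 6 and 13 in yNSCs against NSCs, and 16 and 15 in NSCs against neurons. With that block 34.2% and 27.4%, 20.5% and 17.5%, and 33% and 33.5% of all genes were called higher and lower. Subtracting each array's median moved the median of all genes to 0.08 in yNSCs against neurons and to 0.11 in yNSCs against NSCs. The lack of detection calls limits what can be said of the 16 genes that stayed within the olfactory receptor range in all groups.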
